A study of Mus musculus with 6 samples.

Results

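The collagen genes of mouse neural stem cells (NSC) were taken as every protein-coding gene whose GENCODE vM21 symbol has the form Col, number, a, number, which gave 44 of the 22028 annotated protein-coding genes out of 50686 identifiers that were counted. They were sorted into 10 structural classes. The study compared primary NSC cultures from E16.5 embryos of wild-type mice (NSC) with cultures from STOPFloxBmi1;NestinCre embryos (NSC Bmi1Over), in which Cre recombinase driven by Nestin control sequences removes a stop cassette in front of a Bmi1 transgene. Bmi1 is a subunit of Polycomb repressive complex 1, and H3K27me3 is the histone mark laid down by Polycomb repressive complex 2. RNASeq was read in 2 cultures per genotype, which the study calls biologically independent, and H3K27me3 ChIPSeq in 1 library per genotype, so that the peak lists carry no replicate error. Further ChIPSeq libraries of both genotypes were made, differed in read depth, and were set aside by the authors after quality checks as the weaker ones. Cells came from the subventricular zone of the cerebral hemispheres and were grown as neurospheres or as adherent cells; which of these gave each library is not given in the sources used here. The transgene acts only in the descendants of cells that expressed Nestin-Cre, and every library is bulk, so that fewer cells making a collagen and less RNA per cell cannot be told apart.

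Collagens are extracellular proteins built as trimers of alpha chains, each chain the product of its own gene. Fibrillar collagens form the cables of tendon, bone and cartilage, the network collagens form the sheet of basement membranes, and the remaining classes coat fibrils, anchor them or sit in the cell membrane. In the brain, fibrillar matrix is largely restricted to the meninges and vessel walls, while basement membrane collagen lines the vessels and the pial surface and is found in the matrix that neural stem cells contact.

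The promoters differed in base composition, and 5 of them are printed here. The results turn on these genes, and their promoters range from no CG dinucleotide to many. They are the gene with the largest difference and 2 further genes that differed. The other 2 are from the genes with an H3K27me3 peak within 5 kb of a start site in both genotypes. Each run is the 250 bases before the annotated start, 5′ to 3′ along the gene, from RefSeq on GRCm38.p6, and capitals mark the CG dinucleotides. Col28a1 is at chr6:8192618-8192867 on the minus strand and held 0 CG dinucleotides, Col5a1 at chr2:27886175-27886424 on the plus strand held 28, Col5a3 at chr9:20815068-20815317 on the minus strand held 17, Col13a1 at chr10:61979109-61979358 on the minus strand held 24, and Col15a1 at chr4:47207762-47208011 on the plus strand held 8. The last line is the stretch of 22 bases at chr8:11312805-11312826, written on the plus strand, in which the first exons of the divergently transcribed Col4a1 and Col4a2 overlap.
Col28a1: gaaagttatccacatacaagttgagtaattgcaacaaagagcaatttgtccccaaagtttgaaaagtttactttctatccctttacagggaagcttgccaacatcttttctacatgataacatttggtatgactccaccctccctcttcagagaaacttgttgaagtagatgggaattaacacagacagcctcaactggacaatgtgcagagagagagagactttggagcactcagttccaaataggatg
Col5a1: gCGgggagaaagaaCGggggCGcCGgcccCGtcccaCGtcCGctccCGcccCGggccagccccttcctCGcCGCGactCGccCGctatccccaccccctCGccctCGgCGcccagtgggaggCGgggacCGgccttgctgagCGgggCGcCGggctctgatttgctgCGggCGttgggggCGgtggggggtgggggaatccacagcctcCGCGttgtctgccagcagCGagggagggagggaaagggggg
Col5a3: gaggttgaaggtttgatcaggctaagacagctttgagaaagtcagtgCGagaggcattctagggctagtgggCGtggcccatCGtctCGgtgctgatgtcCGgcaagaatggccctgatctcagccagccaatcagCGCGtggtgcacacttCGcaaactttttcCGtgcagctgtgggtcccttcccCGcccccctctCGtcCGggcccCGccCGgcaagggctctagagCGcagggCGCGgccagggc
Col13a1: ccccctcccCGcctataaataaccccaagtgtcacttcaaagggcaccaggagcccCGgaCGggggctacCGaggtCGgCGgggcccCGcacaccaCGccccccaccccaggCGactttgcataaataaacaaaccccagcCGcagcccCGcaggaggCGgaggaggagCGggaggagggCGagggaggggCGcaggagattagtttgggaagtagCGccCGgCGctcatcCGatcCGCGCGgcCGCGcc
Col15a1: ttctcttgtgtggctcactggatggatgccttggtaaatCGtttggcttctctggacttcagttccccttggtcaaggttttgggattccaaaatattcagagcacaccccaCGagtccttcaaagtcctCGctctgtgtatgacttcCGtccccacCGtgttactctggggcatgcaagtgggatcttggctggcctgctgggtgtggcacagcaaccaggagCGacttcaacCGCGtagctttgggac
Col4a1/Col4a2: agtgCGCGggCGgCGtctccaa

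RefSeq promoter windows of 300 bases (250 before and 50 after the start) were held for 35 of the 44 genes, in 38 windows. The median number of CG dinucleotides per window was 11.5 for the collagen genes, against 7 over all 32851 windows. The motif GGGCGG, known as the GC box, was searched on both strands and was present in 23 of the 38 collagen windows, or 60.5%, against 35.7% of all windows. Windows of the 9 genes with an NSC H3K27me3 peak within 5 kb of a start had a median of 16 CG dinucleotides. Their range was 3 to 34. The 29 windows of the 26 genes without such a peak had a median of 10 with a range of 0 to 37. These ranges overlapped. A peak counted in this way need not cover the window. The windows of Col11a2, Col27a1, Col4a5, Col5a1 and Col6a5 had 0 bases under an NSC peak. Col12a1, Col14a1, Col1a1, Col22a1, Col26a1, Col2a1, Col4a3, Col5a2 and Col9a3 had no window.

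The libraries held 29325893 and 24578802 counted reads in NSC and 18112100 and 61353076 in NSC Bmi1Over. Bmi1 itself, the gene meant to be raised, was at 133 and 124 CPM (counts relative to library size, scaled by the trimmed mean of M-values) in NSC and at 119 and 113 CPM in NSC Bmi1Over, a log2 fold change of -0.15 (standard error 0.12, edgeR adjusted p = 0.463). Whether reads from the transgene are counted under this gene is not given in the sources used here. The counts of the gene were not higher in the libraries labelled NSC Bmi1Over, and the comparison below is between libraries as labelled. Unmapped reads made up 11.2% and 13.7% of the NSC libraries and 16.2% and 17.6% of those labelled NSC Bmi1Over, and the 10 most abundant genes took 5.23% and 6.48% against 8.57% and 10.1% of counted reads; the part of these shifts in the results was not tested. Cell identity was read from marker lists. The 10 neural stem cell markers, among them Nes, Vim and Sox2, summed to 6405 to 7278 CPM in every library, and none of them was called. The sum held opposite shifts. Slc1a3 was at 1839 and 2228 against 2533 and 3063 CPM, and Sox2 at 260 and 216 against 179 and 177 CPM. Of the 10 markers, 3 had a log2 fold change above 0, and the median was -0.22. The 9 fibroblast and meninges markers summed to 71.3 and 102 CPM in NSC and 119 and 176 CPM in NSC Bmi1Over, higher in both NSC Bmi1Over libraries. Within this list Dcn, Lum and Twist2 reached at most 0.0571 CPM, Foxc1 was at 10.7 to 11.7 CPM and Pdgfra, also a marker of oligodendrocyte precursors, at 16.45 to 44.5 CPM. The 1 gene of the list that was called was Thy1, which neurons also express, at 31.6 and 55.9 against 89.97 and 119 CPM. The 7 pericyte and smooth muscle markers summed to 1.82 to 3.37 CPM. Microglial markers reached at most 0.114 CPM and the 4 globin genes had 0 reads. The 6 endothelial markers summed to 2.95 and 4.15 CPM in NSC and 5.66 and 6.67 CPM in NSC Bmi1Over, with Cldn5 at 0 in every library, and the 4 choroid plexus markers to 1.30 and 1.15 against 6.28 and 5.29 CPM, carried by Folr1, which was called higher (log2 fold change 2.53, edgeR adjusted p = 0.00908), with Ttr at most 0.175 CPM. The 5 cartilage markers summed to 64.0 and 57.2 against 46.8 and 48.2 CPM, nearly all from Sox5, with Acan at most 1.45 CPM. In the neuron, astrocyte and oligodendrocyte lists Syt1 was higher (log2 fold change 2.18) and Aldh1l1 lower (-0.86), and no other marker of these lists was called. The part of these lists in the collagen differences was not tested.

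Collagen genes took 0.0784% and 0.0803% of the counted reads in NSC and 0.129% and 0.139% in NSC Bmi1Over, and their summed level was 728 and 781 CPM against 1331 and 1491 CPM. Both NSC Bmi1Over libraries lay above both NSC libraries. Of the 44 genes, 12 had a mean of at least 10 CPM over the 4 libraries, 12 lay between 1 and 10 CPM and 20 below 1 CPM. A filter on low counts left 30 genes to test, and the 14 others had at most 17 reads and at most 0.356 CPM in any library. At an adjusted p under 0.05 in edgeR's quasi-likelihood test over 15521 genes, 7 collagen genes were higher in NSC Bmi1Over, or 23.3% of the 30, beside 2.03% of all tested genes higher, 0.122% lower and 2.15% called in either direction. The genes were Col28a1, Col5a1, Col5a2, Col5a3, Col4a1, Col4a2 and Col9a3. None was lower at this threshold; 14 of the 30 had an unadjusted p under 0.05, against 24.2% of all genes, and DESeq2 called 9, all higher, beside 9.64% of all genes. The log2 fold change was above 0 for 27 of the 30, with a median of 0.58 against -0.01 over all tested genes. In 18 of the 30 both NSC Bmi1Over libraries exceeded both NSC libraries, a pattern shown by 29% of all genes, in 1 they were both lower (30% of all genes), so that 19 did not overlap (59% of all genes), and in 11 the groups overlapped. Without NSC Bmi1Over replicate 2, the deepest library, 4 genes stayed called; without NSC replicate 1, 5 of the 7 did.

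**Figure D1:**
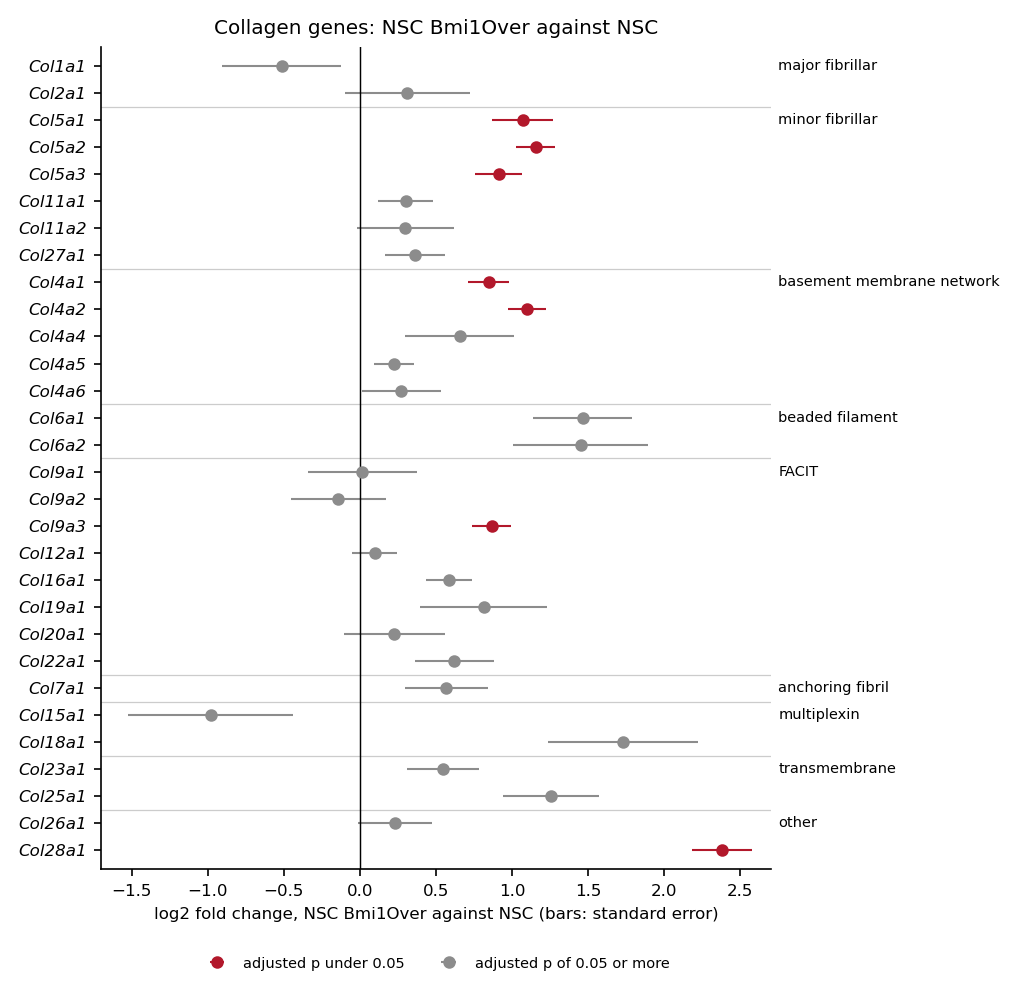
Log2 fold change of the 30 tested collagen genes, NSC Bmi1Over against NSC, grouped by class, with bars for the standard error of the edgeR fit (n = 2 libraries per group) and red points for an adjusted p under 0.05. The 7 red points lie between 0.84 (Col4a1) and 2.38 (Col28a1), and 3 genes lie below 0.

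Compared per kilobase of exon, the level of the collagen genes spanned several orders of magnitude. Col9a3 led with 26.4 and 29.1 CPM per kb in NSC and 50.5 and 50.5 CPM per kb in NSC Bmi1Over. By mean over the 4 libraries Col4a1 (20.3 CPM per kb), Col28a1 (17.8), Col5a3 (17.8) and Col5a2 (14.0) followed, then Col16a1 (11.4), Col4a2 (9.12), Col4a5 (7.44), Col18a1 (7.18), Col12a1 (4.86), Col5a1 (4.401) and Col11a1 (3.28). Neighbours in this order were not separated in every library: Col28a1 stood below Col5a3 in both NSC libraries, at 4.54 and 6.97 against 10.8 and 13.9 CPM per kb, and above it in both NSC Bmi1Over libraries, at 30.2 and 29.4 against 21.8 and 24.6 CPM per kb. Of the abundant collagens of connective tissue, Col1a1 was at 0.0800 to 0.151 CPM per kb, Col1a2 at most 0.0230 and Col3a1 at most 0.0291 CPM per kb. The 7 called genes took 62.9% and 62.6% of all collagen reads in NSC and 74.3% and 69.4% in NSC Bmi1Over. They were picked by their calls in these same libraries, so that a larger share in NSC Bmi1Over largely follows from the choice.

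**Figure D2:**
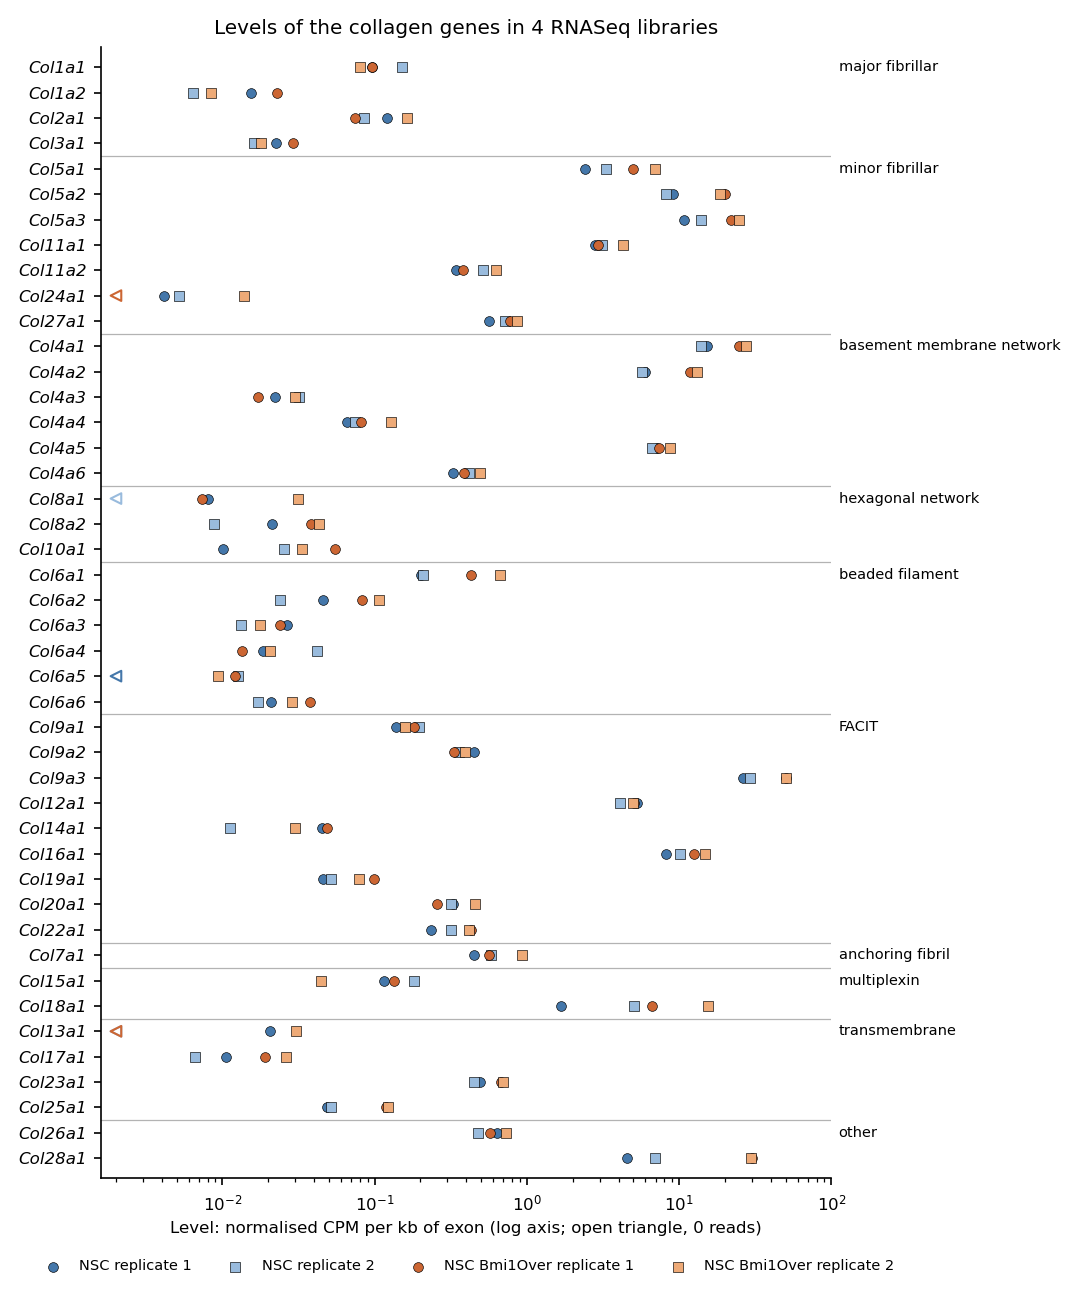
Level of each of the 44 collagen genes in each library, in normalised CPM per kb of exon on a log axis, ordered by class; blue marks NSC, orange marks NSC Bmi1Over, circles replicate 1, squares replicate 2, and an open triangle at the left edge a library with 0 reads (2 libraries, superimposed, at Col13a1). Col9a3 is the highest gene, at 26.4 to 50.5 CPM per kb, and the major fibrillar and hexagonal network genes lie at or below 0.163 CPM per kb.

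Of the major fibrillar chains, those of collagen types I, II and III, none was called, and their 4 genes summed to 1.89 to 2.31 CPM in every library. Col1a1, the main chain of type I, had 0.634 and 0.989 CPM in NSC and 0.628 and 0.525 CPM in NSC Bmi1Over (log2 fold change -0.51, standard error 0.39, edgeR adjusted p = 0.437). It was the only tested collagen gene with both NSC Bmi1Over libraries below both NSC libraries, by a margin of less than the difference between the NSC cultures, and its log2 fold change was -0.18 without NSC replicate 2, -0.81 without NSC replicate 1 and -0.03 with all libraries thinned to the shallowest, an alternative chosen after seeing the data. Col2a1, the type II chain of cartilage, had 1.11 and 0.791 against 0.685 and 1.505 CPM, with overlapping groups. Col1a2 and Col3a1 had between 2 and 10 reads per library and were not tested.

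The minor fibrillar class, whose type V and XI chains are incorporated inside larger fibrils and limit their thickness, held 3 of the 7 called genes. All 3 type V genes were higher. Col5a2, at chr1:45374321-45503282, was at 87.3 and 79.1 CPM in NSC and 192 and 179 CPM in NSC Bmi1Over, a log2 fold change of 1.16 (standard error 0.13, edgeR adjusted p = 0.00792). Col5a3, at chr9:20770050-20815067, was at 73.6 and 94.5 against 149 and 167 CPM (log2 fold change 0.91, standard error 0.15, adjusted p = 0.0370), and Col5a1, at chr2:27886425-28039514, at 20.5 and 27.9 against 42.3 and 58.7 CPM (1.07, standard error 0.20, adjusted p = 0.0411). In each of the 3 genes the lower NSC Bmi1Over library exceeded the higher NSC library. The calls on Col5a1 and Col5a3 were lost without NSC Bmi1Over replicate 2 (adjusted p = 0.0844 and 0.0611), and that on Col5a3 also without NSC replicate 1 (adjusted p = 0.110). Per kilobase, Col5a3 stood at 3.56 to 4.47 times Col5a1 across the 4 libraries and Col5a2 at 2.51 to 4.01 times, so that Col5a1 was the scarcest of the 3 chains in every library. Exons of Col5a1 share 2.50% of their length with transcripts on the opposite strand, which unstranded counts cannot separate.

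Col11a1, a type XI chain, had 35.6 and 39.4 CPM in NSC and 37.4 and 54.5 CPM in NSC Bmi1Over (log2 fold change 0.30, standard error 0.18, edgeR adjusted p = 0.327). The groups overlapped, and the difference rested on NSC Bmi1Over replicate 2, without which it was -0.0066, while without replicate 1 it was 0.546 (adjusted p = 0.0363). Its partner chain Col11a2 was at 2.34 to 4.32 CPM and Col27a1, a cartilage growth plate collagen, at 7.32 and 9.38 against 10.1 and 11.3 CPM, neither called. Col24a1 had at most 6 reads.

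Among the basement membrane network genes, the ubiquitous pair Col4a1 and Col4a2 was higher in NSC Bmi1Over. Col4a1, at chr8:11198423-11312826, had 114 and 103 CPM in NSC and 185 and 205 CPM in NSC Bmi1Over (log2 fold change 0.84, standard error 0.13, edgeR adjusted p = 0.0290). Col4a2, at chr8:11312805-11449287, had 39.4 and 37.5 against 78.3 and 86.2 CPM (1.10, standard error 0.12, adjusted p = 0.00792). Neither pair of groups overlapped, and the replicates of a genotype lay close together in both genes. Without NSC Bmi1Over replicate 2 the adjusted p of Col4a1 was 0.0501, while Col4a2 stayed called in every alternative fit. The ratio of Col4a1 to Col4a2 per kilobase was 2.56 and 2.45 in NSC and 2.09 and 2.11 in NSC Bmi1Over, lower in both NSC Bmi1Over libraries; with 2 values per group an exact permutation test cannot give a p below 0.333. The genes start head to head and share the 22 bases printed above, which held 4 CG dinucleotides, and both of their 300-base windows lay at the CG-rich end, with 37 and 33.

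The second head-to-head pair of the class, Col4a5 and Col4a6 on the X chromosome, did not pass the test. Col4a5 had 48.0 and 44.3 CPM in NSC and 49.2 and 58.5 CPM in NSC Bmi1Over (log2 fold change 0.23, standard error 0.13, edgeR adjusted p = 0.324). Its NSC Bmi1Over replicate 1 exceeded NSC replicate 1 by little more than 1 CPM. Col4a6 was far scarcer, at 2.60 to 3.94 CPM, with Col4a5 at 15.8 to 21.9 times Col4a6 per kilobase. The third pair, Col4a3 and Col4a4, which encode chains of kidney and lung basement membrane, had at most 0.316 and 1.37 CPM.

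**Figure D3:**
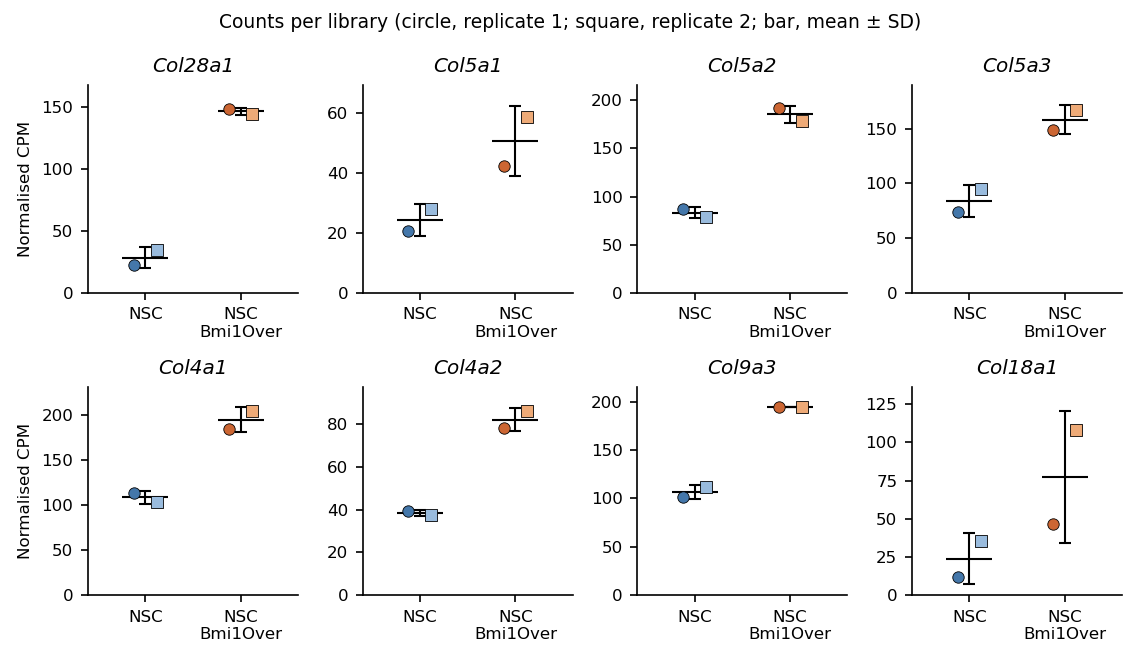
Normalised CPM of the 7 called genes and of Col18a1 in each library, on axes that start at 0, with circles for replicate 1, squares for replicate 2 and bars for the mean and SD (n = 2). The NSC and NSC Bmi1Over libraries are apart in all 8 genes; in Col18a1 the spread inside each genotype is the widest, 11.8 to 35.4 CPM in NSC and 46.5 to 108 CPM in NSC Bmi1Over.

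The fibril-associated collagens with interrupted helices (FACIT), which decorate the surface of fibrils, held 1 called gene of 8 tested. Col9a3, at chr2:180597790-180622189, had 102 and 112 CPM in NSC and 195 and 195 CPM in NSC Bmi1Over (log2 fold change 0.87, standard error 0.13, edgeR adjusted p = 0.0225). It was lost without NSC replicate 1 (adjusted p = 0.0855). Type IX collagen is assembled from the products of Col9a1, Col9a2 and Col9a3, yet the other chains were almost silent: per kilobase Col9a3 was 149 to 318 times Col9a1 and 58.5 to 152 times Col9a2, and neither partner was called, with log2 fold changes of 0.02 and -0.14. Exons of Col9a3 share 6.07% of their length with Tcfl5 on the opposite strand.

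No other FACIT gene passed the test, and Col16a1 and Col12a1 were the most abundant of them per kilobase, at 11.4 and 4.86 CPM per kb against 39.1 for Col9a3 by mean over the 4 libraries. Col16a1 had 55.4 and 68.1 CPM in NSC and 84.7 and 100 CPM in NSC Bmi1Over (log2 fold change 0.58, standard error 0.15, edgeR adjusted p = 0.0733). Its groups did not overlap. Col16a1 was called by DESeq2, in the fit with the replicate number as a block and in the fit without the filter on low counts. The other alternatives that kept every library did not call it. Col12a1, a collagen of dense connective tissue and of cells under strain, had 80.9 and 62.1 against 76.7 and 76.3 CPM (0.10, standard error 0.15, adjusted p = 0.709), and its NSC Bmi1Over values lay inside the range of the NSC cultures. Col22a1, at 2.15 and 2.93 against 3.94 and 3.85 CPM, and Col19a1, at 0.317 and 0.356 against 0.685 and 0.542 CPM, had adjusted p-values of 0.188 and 0.268. Col20a1 overlapped between the groups and Col14a1 had at most 12 reads.

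The beaded filament class of type VI collagen was at the low end of the tested range. Col6a1 had 0.887 and 0.910 CPM in NSC and 1.89 and 2.92 CPM in NSC Bmi1Over (log2 fold change 1.46, standard error 0.33, edgeR adjusted p = 0.0584). Col6a2, its obligate partner, had 0.380 and 0.198 against 0.685 and 0.892 CPM (1.45, standard error 0.44, adjusted p = 0.101). Both fold changes exceeded those of the type IV and type V genes, on 5 to 167 reads per library, and neither passed the test; both did in the fit with the replicate number as a block and in the fit without the filter on low counts. Col6a3, Col6a4, Col6a5 and Col6a6 had at most 0.356 CPM and were not tested.

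Multiplexins are basement membrane collagens that carry sugar chains, and Col18a1 is the source of endostatin. Col18a1 had 11.8 and 35.4 CPM in NSC and 46.5 and 108 CPM in NSC Bmi1Over (log2 fold change 1.73, standard error 0.49, edgeR adjusted p = 0.0900). The groups did not overlap, but the cultures of each genotype differed by more than those of any other collagen gene above 10 CPM. Leaving out 1 library at a time gave log2 fold changes from 0.99 to 2.72, and 5 of 13 alternative fits called it. Col15a1, the other multiplexin, had 0.729 and 1.15 against 0.857 and 0.280 CPM (-0.98, standard error 0.54, adjusted p = 0.297), with overlapping groups; its log2 fold change was -0.11 without NSC Bmi1Over replicate 2, -1.71 without NSC Bmi1Over replicate 1 and -0.62 without NSC replicate 2.

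Among the remaining classes Col28a1 stood out. This gene encodes a collagen with von Willebrand factor A domains that is known from Schwann cells of peripheral nerve, and lies at chr6:7997808-8192617. It had 22.2 and 34.2 CPM in NSC and 148 and 144 CPM in NSC Bmi1Over, a log2 fold change of 2.38 (standard error 0.20, edgeR adjusted p = 0.00316). The NSC Bmi1Over cultures agreed closely and lay far above both NSC cultures. Its share of all collagen reads was 3.06% and 4.38% in NSC and 11.1% and 9.68% in NSC Bmi1Over, and it was called in all 13 alternative fits, with log2 fold changes from 2.10 to 2.72. It was also the called gene whose 300-base promoter window held 0 CG dinucleotides; of the 5 called genes with a window, the other 4 held 20 to 37.

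Col26a1, the other gene without a class, was at 3.92 to 5.91 CPM with overlapping groups. Of the membrane-spanning collagens, Col25a1, known from neurons and from amyloid plaques, had 0.634 and 0.672 CPM in NSC and 1.54 and 1.57 CPM in NSC Bmi1Over (log2 fold change 1.26, standard error 0.32, edgeR adjusted p = 0.0722), and Col23a1 had 2.82 and 2.57 against 3.88 and 3.99 CPM (0.55, adjusted p = 0.198). Neither gene overlapped between groups and neither passed the test. Col13a1 and Col17a1 had at most 9 reads. Col7a1, the anchoring fibril collagen of skin, was at 4.59 and 5.97 against 5.83 and 9.50 CPM and overlapped. The hexagonal network genes Col8a1, Col8a2 and Col10a1 had at most 14 reads and were not tested.

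A collagen chain becomes a secreted trimer only through enzymes and chaperones of the endoplasmic reticulum, and is then exported, trimmed, crosslinked, bound by receptors or degraded. In 6 lists of 71 such genes, 61 were tested and 14 were called, all higher in NSC Bmi1Over. Of all tested genes, 2.03% were called higher and 2.15% in either direction. The log2 fold change was above 0 for 55 of the 61, beside 48.6% of all tested genes, with a median of 0.57 against -0.01. The lists were chosen with earlier results of these data known, so these contrasts are no independent test. Leaving out 1 library at a time gave 6 to 28 calls.

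Of the 18 genes of folding and hydroxylation, 5 were called. Fkbp10, a prolyl isomerase chaperone, had 5.04 and 5.30 CPM in NSC and 12.2 and 13.2 CPM in NSC Bmi1Over (log2 fold change 1.30, edgeR adjusted p = 0.0197), and Fkbp14, of the same family, 25.7 and 32.0 against 59.2 and 62.0 CPM (1.07, adjusted p = 0.0172). P3h1 and Crtap, which form the prolyl 3-hydroxylation complex, had log2 fold changes of 0.80 and 0.93, and Colgalt2, which adds galactose to hydroxylysine, of 0.90. The collagen chaperone Serpinh1, the most abundant gene of the list, was at 976 and 1125 against 1392 and 1496 CPM (0.46, adjusted p = 0.189) and was not called, nor was P4hb, a subunit of prolyl 4-hydroxylase, at 749 and 894 against 1154 and 1385 CPM (0.63, adjusted p = 0.107). P4ha2, a catalytic subunit of the same enzyme, was at 23.5 and 7.199 against 0.571 and 7.51 CPM. Its log2 fold change was -1.77 (standard error 0.77, edgeR adjusted p = 0.206), with overlapping groups that differed mostly inside each genotype. Of the 18 genes of the list, 16 had a log2 fold change above 0.

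**Figure D4:**
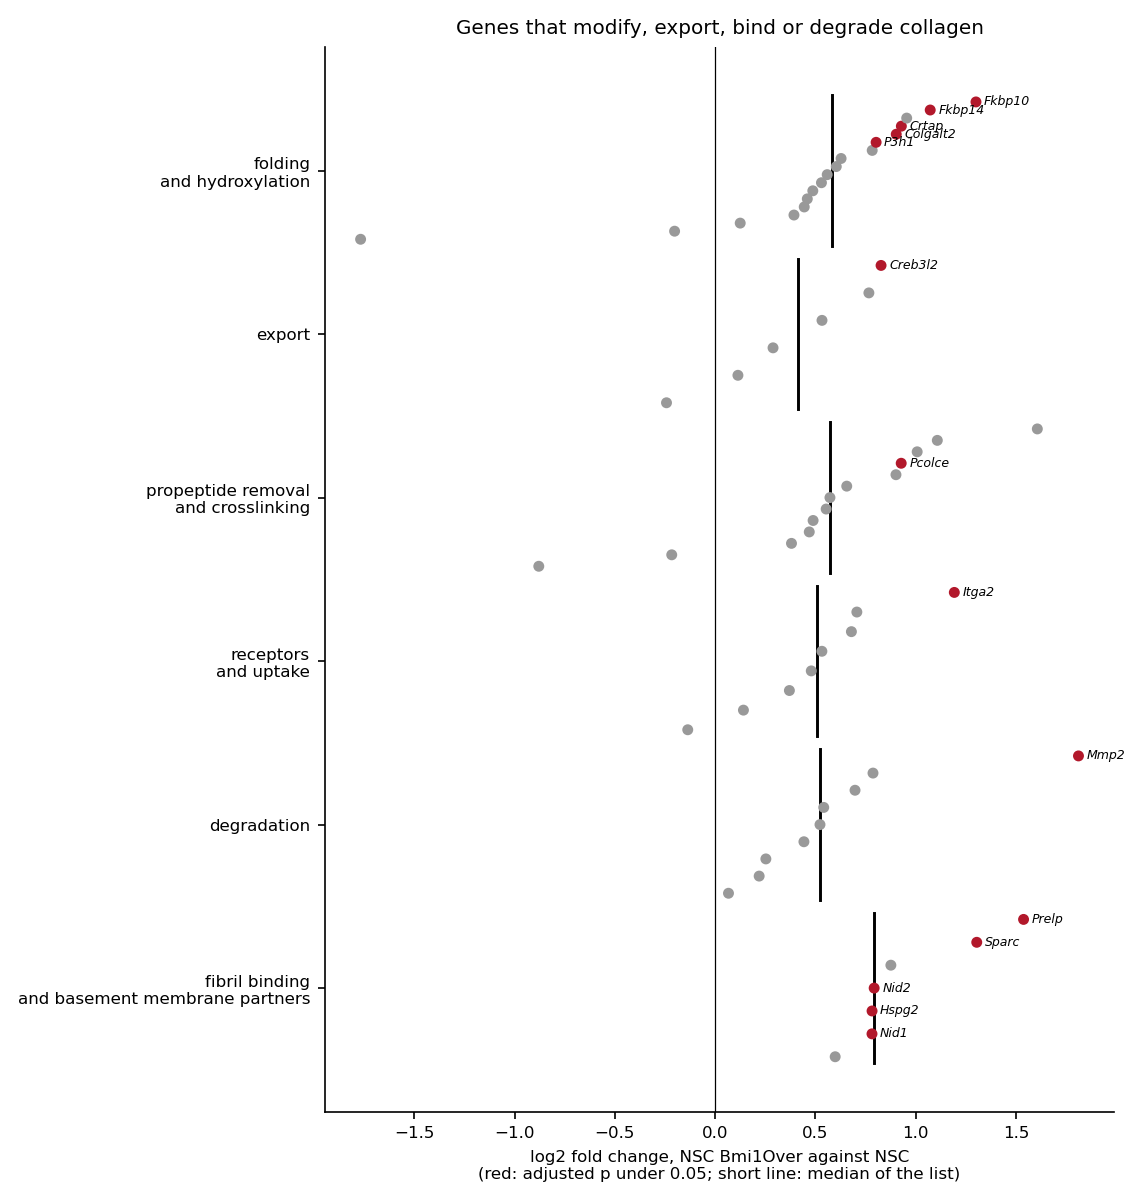
Log2 fold change, NSC Bmi1Over against NSC, of the 61 tested genes of 6 lists around collagen, each point 1 gene, red where the edgeR adjusted p was under 0.05, with a short line at the median of each list. The 14 red points are all to the right of 0, and 55 of the 61 points lie above 0.

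Export held 1 called gene of 6, Creb3l2, a transcription factor of secretory genes (log2 fold change 0.83, edgeR adjusted p = 0.0220). Of 13 genes of propeptide removal and crosslinking, Pcolce, the enhancer of procollagen C-proteinase, was called (0.93, adjusted p = 0.0398), while the proteinase Bmp1 was not (0.55, adjusted p = 0.109). Of 8 tested receptors and uptake genes, Itga2, the alpha subunit of a collagen-binding integrin, was called (3.45 and 4.31 against 10.0 and 7.86 CPM, adjusted p = 0.0440). Its beta partner Itgb1 had 1089 and 1398 against 1856 and 2127 CPM (0.68, adjusted p = 0.111), and Adgrg1, a receptor for type III collagen in developing cortex, 886 and 1051 against 1195 and 1505 CPM (0.48, adjusted p = 0.199). Of 9 tested degradation genes Mmp2, a gelatinase, was called, at 0.856 and 0.949 against 3.48 and 2.92 CPM (1.81, adjusted p = 0.0316).

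The list of fibril binding and basement membrane partners had 5 of 7 tested genes called. Sparc, a collagen-binding glycoprotein, had 163 and 173 CPM in NSC and 420 and 408 CPM in NSC Bmi1Over (log2 fold change 1.30, edgeR adjusted p = 0.00792). Nid1 and Nid2, which link laminin to type IV collagen, had log2 fold changes of 0.78 and 0.79, and Hspg2, perlecan of the basement membrane, of 0.78. Prelp, which ties fibrils to basement membrane, had 3.36 and 4.15 against 10.5 and 11.3 CPM (1.54, adjusted p = 0.0177). In all 5 genes both NSC Bmi1Over libraries lay above both NSC libraries. Fn1, fibronectin, was at 118 and 89.2 against 138 and 175 CPM (adjusted p = 0.0945).

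H3K27me3 broad peaks were read within 5 kb of any annotated start site. In NSC 11 of the 44 collagen genes, or 25%, had such a peak, beside 8.83% of all protein-coding genes, and in NSC Bmi1Over 6, or 13.6%, beside 4.38%. All 6 were among the 11. The 2 lists thus differed in how many promoters they marked, so that loss of the mark at a gene and a thinner peak list cannot be told apart, and with 1 library per genotype no test was made. Read depth also differed between the ChIPSeq libraries of the genotypes, as the methods of the study state, and its part was not tested. When only peaks of 5-fold enrichment or more were kept, the lists did not differ in number, with 5 of the 44 genes in each, beside 3.06% and 2.53% of all protein-coding genes. Col2a1, Col27a1, Col8a2, Col14a1, Col15a1 and Col13a1 had a peak in both, and Col5a1, Col11a2, Col4a5, Col4a6 and Col6a5 in NSC alone.

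The genes with a peak in both lists were, apart from Col27a1, genes with little RNA: the 5 others reached at most 1.505 CPM in any library. Little RNA was not particular to them, since 20 of all 44 collagen genes had a mean below 1 CPM. Among these were Col1a1, Col1a2 and Col3a1, which had a promoter peak in neither list. At Col2a1 the widest NSC peak covered 8490 bp over the start of the gene, at chr15:97998301-98006790, with a fold enrichment of 5.61, beside 3 further NSC promoter peaks of 242, 369 and 408 bp, and NSC Bmi1Over had 6 promoter peaks of 200 to 756 bp at this gene. Col14a1 had 1 NSC peak of 3055 bp (fold enrichment 5.76) against 2 of 544 and 327 bp, Col13a1 1 of 2689 bp (6.23) against 1 of 783 bp (5), and the main Col15a1 peak was 2135 bp (5.93) against 4 peaks of at most 448 bp. The printed Col13a1 and Col15a1 runs lie wholly under their NSC peaks. NSC Bmi1Over peaks covered 158 bases of the 300-base window of Col13a1 and 0 bases of that of Col15a1. At all 6 genes the longest peak was shorter in NSC Bmi1Over than in NSC, and none there reached 1000 bp, against 5 genes with a peak of that length in NSC. Over all protein-coding genes, 3.90% in NSC and 1.49% in NSC Bmi1Over had a promoter peak of at least 1000 bp. The fold enrichment of the longest peak was lower in NSC Bmi1Over at 5 of the 6 genes, for example 5.63 against 4.34 at Col27a1, and higher at Col8a2, where it was 4.76 in NSC and 5.45 in NSC Bmi1Over.

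**Figure D5:**
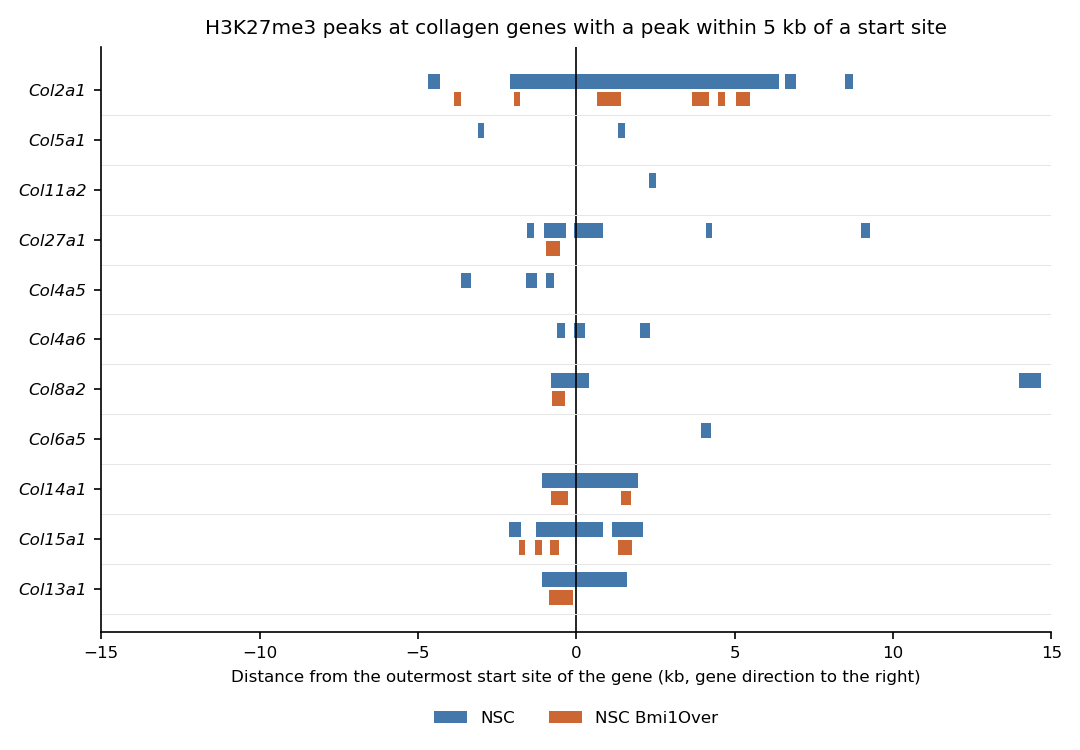
Broad H3K27me3 peaks around the outermost start site (0 kb) of the 11 collagen genes with a promoter peak, transcription to the right, distance in kb; blue bars are NSC peaks and orange bars NSC Bmi1Over peaks, 1 library each. Long blue bars cross the start of Col2a1, Col14a1, Col15a1 and Col13a1, the orange bars at the same genes are shorter, and the 5 genes Col5a1, Col11a2, Col4a5, Col4a6 and Col6a5 have no orange bar.

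Of the 7 genes with more RNA in NSC Bmi1Over, Col5a1 alone had a promoter peak, in NSC. It had 2 peaks of 200 bp, at chr2:27883324-27883523 and chr2:27887756-27887955, with fold enrichments of 3.62 and 4.41, which left the 250 bases printed above free. Along the gene body 11 NSC peaks, the second of these included, covered 2.49% of its length, and none was listed in NSC Bmi1Over. Among the 5 genes marked in NSC alone, Col4a5 and Col4a6 share 3 promoter peaks, of which 1 lies between the starts, 1 crosses the start of Col4a6 and 1 lies inside Col4a6, and Col4a6 held 15 NSC peaks along its 308674 bp against 5 in NSC Bmi1Over. The median level of the 11 marked genes was 0.120 and 0.181 CPM per kb in the NSC libraries and that of the 33 unmarked genes 0.203 and 0.208 CPM per kb; in the NSC Bmi1Over libraries the same genes had medians of 0.135 and 0.163 against 0.256 and 0.390 CPM per kb. These medians describe unequal sets of genes whose levels overlapped widely.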

How the data were processed

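The authors trimmed reads with Trim Galore and deposited raw counts per gene from STAR on mm10 (GRCm38), of which the unstranded counts of 4 RNASeq libraries were used here; the RNA kit does not mark strand, and the annotation they counted with and the STAR version are not given in the sources used here. For ChIPSeq, aligned with Bowtie2 2.3.4, the deposited broad peaks were called by the authors with MACS2 per library (minimum fold 2, FDR 0.05). They give a fold enrichment, which is a ratio over background, a -log10 p-value and q-value, and a display score that the authors' format holds and that was not used. One ChIPSeq library per genotype was analysed here, without replicate pooling.

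Rows of unmapped, multimapped, unassigned and ambiguous reads were left out, so that 65.9% to 72.2% of the reads were counted. Gene identifiers were matched to GENCODE vM21 (50462 of 50686). Counts were filtered by filterByExpr, scaled by TMM and tested with edgeR 4.0.16 (R 4.3.3, glmQLFit and glmQLFTest), adjusted by Benjamini-Hochberg over 15521 genes, with 0.05 as the threshold; the biological coefficient of variation was 12.9%. Normalised CPM were divided by the length of the exon union for levels between genes. A gene was marked where a peak overlapped, by at least 1 bp, the 5 kb on either side of an annotated start. Group labels came from the sample titles. The fit was tested on simulated counts. DESeq2 1.42.0, other scalings and filters, a replicate block, leave-one-out fits and other peak rules were tried as alternatives. Any collagen gene could be named, and those called or with a mean of at least 10 CPM were given in full; of the lists around collagen, genes could be named if called, if their unadjusted p was under 0.05 or if among the 2 most abundant of a list, and only some of these are. Lower-level collagen genes given with a fold change and p were chosen after their values were seen. Members and lists were chosen with earlier results of these data known. With 2 cultures per group, p-values rest on the spread between those cultures. Coordinates are mm10, counted from 1.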

Additional observations from a re-analysis of the deposited data

How the results depend on the processing

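The 7 collagen calls were all present in the 9 alternatives that kept every library, among them DESeq2's test (9 calls) and all libraries thinned to the shallowest, an alternative chosen after seeing the data. The count was 12 without the filter on low counts, gaining Col16a1, Col18a1, Col25a1, Col6a1 and Col6a2, and 12 with a replicate block, gaining the same 5; leaving out 1 library gave 4 to 12, with Col4a1, Col5a1 and Col5a3 lost without NSC Bmi1Over replicate 2, and Col5a3 and Col9a3 lost without NSC replicate 1. For the lists around collagen, 14 calls became 29 with DESeq2, 33 without the filter, 40 with the block and 6 to 28 with 1 library left out. Over all genes, 334 calls (94.3% higher) became 1496 with DESeq2, 537 with scaling by library size alone (64.4% higher, where all genes had a median of -0.165), 2356 without the filter (80.3% higher), 3459 with the block (70.3% higher) and 130 to 2013 with 1 library left out. The replicate numbers pair nothing in the labels, and the differences between same-numbered replicates correlated at 0.169; with 2 pairs this does not settle whether they share a source, and they were treated as unpaired. Of 156 log2 fold changes (12 collagen genes in 13 alternatives), 137 kept direction and side of the threshold, 11 passed it newly, 5 lost it and 3 changed sign: Col11a1 to -0.0066 without NSC Bmi1Over replicate 2 (up to 0.546 without another library), and Col12a1 to -0.058 with library size alone and -0.082 without NSC replicate 2 (up to 0.300). Genes with a promoter peak fell from 11 to 5 in NSC at a fold enrichment of at least 5, where NSC Bmi1Over also had 5, and to 5 for peaks of at least 1000 bp, and from 6 to 0 in NSC Bmi1Over for peaks of that length. The 10 highest genes per length were also the 10 highest with the longest transcript as length. The causes of these shifts were not tested. The 14 untested genes had at most 17 reads in any library, and none of them was called in the fit without the filter; the peak lists have no replicate.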
